A study of Homo sapiens with 8 samples.

Results

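The BCL2 family apoptosis genes followed here are 10 named genes of the 25369 in the deposited table: BCL2, BCL2L1 and MCL1, which restrain apoptosis, BCL2L11, BMF, BBC3, PMAIP1 and BIK, which encode BH3-only proteins that trigger it, and BAX and BAK1, which encode the effectors. They were chosen by name and not by a rule on their values, though earlier results of these data were known. All 10 passed the filter on low values. The cells were MCF10A, a spontaneously immortalized and non-transformed human mammary epithelial line, encapsulated for 7 days in hydrogels and profiled by RNA-seq in 8 libraries. Soft IPNs were interpenetrating networks of alginate and reconstituted basement membrane (rBM) with no calcium crosslinking, and stiff IPNs held the same polymers with the alginate crosslinked by calcium. Soft col:rBM gels were made of rat tail collagen-1 with rBM, and stiff col gels of collagen-1. Each gel was sequenced in 2 replicates from independent trials, and gels were cast in wells precoated with rBM. The labels give no transgene or drug for any of these libraries, and 1 cell line in culture stood for the breast epithelium. The IPN pair therefore differed in added calcium as well as in stiffness, and the collagen pair in rBM and collagen content as well as in stiffness. In neither pair can these be told apart.

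The BCL2 family sets the mitochondrial threshold for apoptosis. Anti-apoptotic members bind and hold BH3-only proteins and the effectors, and once BAX and BAK1 are released they permeabilize the outer mitochondrial membrane, freeing cytochrome c to activate caspases through APAF1. In MCF10A acini grown in rBM, inner cells that lose matrix contact die and leave a lumen, and the BH3-only proteins BIM (gene BCL2L11) and BMF are known for their part in this death and in anoikis, the apoptosis of detached epithelial cells. Much of the control of these proteins lies in phosphorylation, binding and turnover, which RNA levels do not measure.

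Values are normalized counts, that is, reads per gene divided by 1 factor for each library. Estimated from steps in the low values, about 13070000 to 18590000 reads per library fell on genes. The libraries were sequenced with paired ends, so a read here is 1 counted unit, which can be a read pair. The 8 markers of basal-like MCF10A cells were all expressed, with a summed level of 120634 to 192667, and ESR1 and PGR, the luminal hormone receptors, summed to 3 to 15. Of the fibroblast markers, DCN and COL1A1 alone passed the filter and the list summed to 775 to 1468, while COL3A1 and LUM were at 0 or 1. The endothelial list summed to 39 to 270, from KDR and PECAM1, with VWF at 0 to 2, and in the leukocyte list PTPRC was at 0 in all libraries and the sum of 89 to 415 was nearly all CD14. In such bulk samples, fewer cells of a type and less RNA per cell cannot be told apart.

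Because levels can be compared between genes only per length, normalized counts were divided by the length of the canonical transcript. On this scale MCL1, a short-lived anti-apoptotic protein, had the highest median over the 8 libraries, 6712 normalized counts per kb. The effector BAX followed with 1057, then BCL2L1, the gene of BCL-xL, with 848 and the effector BAK1 with 538. The BH3-only genes lay below all of these: BIK had a median of 272 per kb, PMAIP1 148, BCL2L11 44.3, BBC3 39.3 and BMF 9.16. BCL2, the founding member, was last with 2.69 per kb, from 10 to 30 reads per library.

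**Figure D1:**
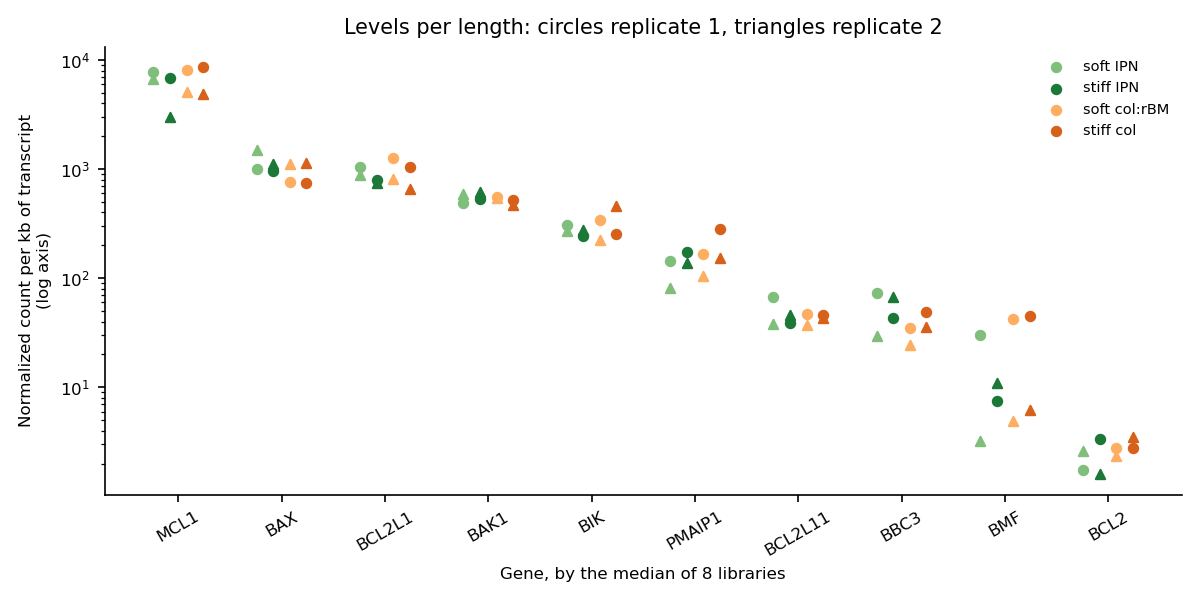
Normalized count per kb of canonical transcript on a log axis for the 10 genes, ordered by their median, with 1 point for each of the 8 libraries (circles replicate 1, triangles replicate 2, colours the 4 gels). MCL1 lies at the top in every library and BCL2 at the bottom, and BMF has the widest spread.

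The order held in all 8 libraries between MCL1 and BAX, BCL2L1 and BAK1, BAK1 and BIK, PMAIP1 and BCL2L11, and BMF and BCL2. BAX exceeded BCL2L1 in 5 of 8 libraries and BCL2L11 exceeded BBC3 in 4 of 8, so these neighbours were not separated beyond the spread. BIK exceeded PMAIP1, and BBC3 exceeded BMF, in 7 of 8. The place of BAX depends on its gene model: with the 2587 bases covered by any of its exons in place of the 795 of its canonical transcript, its median was 325 per kb and its rank 4. In hg19, MCL1 lies at chr1:150533371-150552214, PMAIP1 at chr18:57567228-57571537, BMF at chr15:40380091-40401093, BAX at chr19:49458072-49465055 and BCL2L1 at chr20:30252255-30311792. The counts per gene, over exons, do not separate isoforms, such as the long and short forms of MCL1 or BCL2L1, which act in opposite ways.

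Promoter sequences are shown for 3 of the genes, because BMF and PMAIP1 were the BH3-only genes, and BAX the effector, whose RNA differed between the trials described further on. A promoter was found for 8 of the 10 members, all but MCL1 and BIK. Each sequence is the 250 bases before the RefSeq start that lies in the canonical transcript, 5′ to 3′ on the gene's strand, in GRCh38.p14 (the deposited counts used hg19), with capitals marking the GC box GGGCGG and the E-box CACGTG on either strand. The windows are chr15:40108880-40109129 on the minus strand for BMF, chr18:59899746-59899995 on the plus strand for PMAIP1 and chr19:48954625-48954874 on the plus strand for BAX.

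BMF: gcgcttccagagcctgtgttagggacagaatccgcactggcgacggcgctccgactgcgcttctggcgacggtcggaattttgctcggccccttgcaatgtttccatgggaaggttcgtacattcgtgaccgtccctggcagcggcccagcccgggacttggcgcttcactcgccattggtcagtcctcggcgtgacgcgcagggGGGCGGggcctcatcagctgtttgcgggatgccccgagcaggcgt

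PMAIP1: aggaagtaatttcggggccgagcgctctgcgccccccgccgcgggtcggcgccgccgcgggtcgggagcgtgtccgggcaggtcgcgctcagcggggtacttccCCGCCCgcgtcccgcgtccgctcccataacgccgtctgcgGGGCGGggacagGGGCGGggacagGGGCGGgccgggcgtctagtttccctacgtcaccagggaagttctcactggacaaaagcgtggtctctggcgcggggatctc

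BAX: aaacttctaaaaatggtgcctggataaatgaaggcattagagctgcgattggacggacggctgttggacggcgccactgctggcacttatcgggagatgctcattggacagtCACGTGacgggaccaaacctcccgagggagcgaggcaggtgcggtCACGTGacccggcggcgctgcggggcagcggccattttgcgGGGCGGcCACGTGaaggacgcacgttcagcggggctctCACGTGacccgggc

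The PMAIP1 window held 4 GC boxes, at 146, 106, 94 and 82 bases before the start, and those of BMF and BAX held 1 each, where 42.64% of 35116 promoter windows held at least 1. The BAX window also held 4 E-boxes, against a share of 6.34% with at least 1, a motif added to the search after the BAX sequence had been read. Neither GTAAACA of FOXO factors (2.98% of windows), TGACGTCA (CRE, 1.65%), TTTNGCGC (E2F, 1.51%), TATAAA (10.72%) nor TGANTCA (AP-1, 6.57%) occurred in these 3 windows. These are matches of letters and not measured binding.

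The first question was whether the stiffness or composition of the gel moved these genes. The tests were limma fits to log2(normalized count + 1) of 13369 genes over all 8 libraries, with Benjamini-Hochberg adjustment, and a gene was called at an adjusted p under 0.05. No member was called between any gels, whether the replicate number was left out of the fit or entered as a block. Without the block 0 of the 13369 genes, 0%, were called in any gel comparison by limma. At an unadjusted p under 0.05 in that fit there were 1245 between stiff and soft IPNs and 140 between stiff col and soft col:rBM. There were 190 between the soft gels and 838 between the stiff gels. The paper, using DESeq2 on pairs of gels, does report genes called at an FDR under 0.05 between the IPNs and between the stiff gels. The 0 therefore belongs to this limma fit. With the block, 3.82% of all genes were called between stiff and soft IPNs, 0% between stiff col and soft col:rBM, 0.0224% between the soft gels and 2.47% between the stiff gels. The block also called 1.58% for any difference among the 4 gels, 0.598% for the stiffness difference averaged over both gel systems and 0.015% for the difference between the systems in that effect, 0% for each without it. The replicate numbers did pair the libraries, so both fits are given below. With 2 libraries against 2, an exact two-sided permutation test cannot give a p below 0.333.

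**Figure D2:**
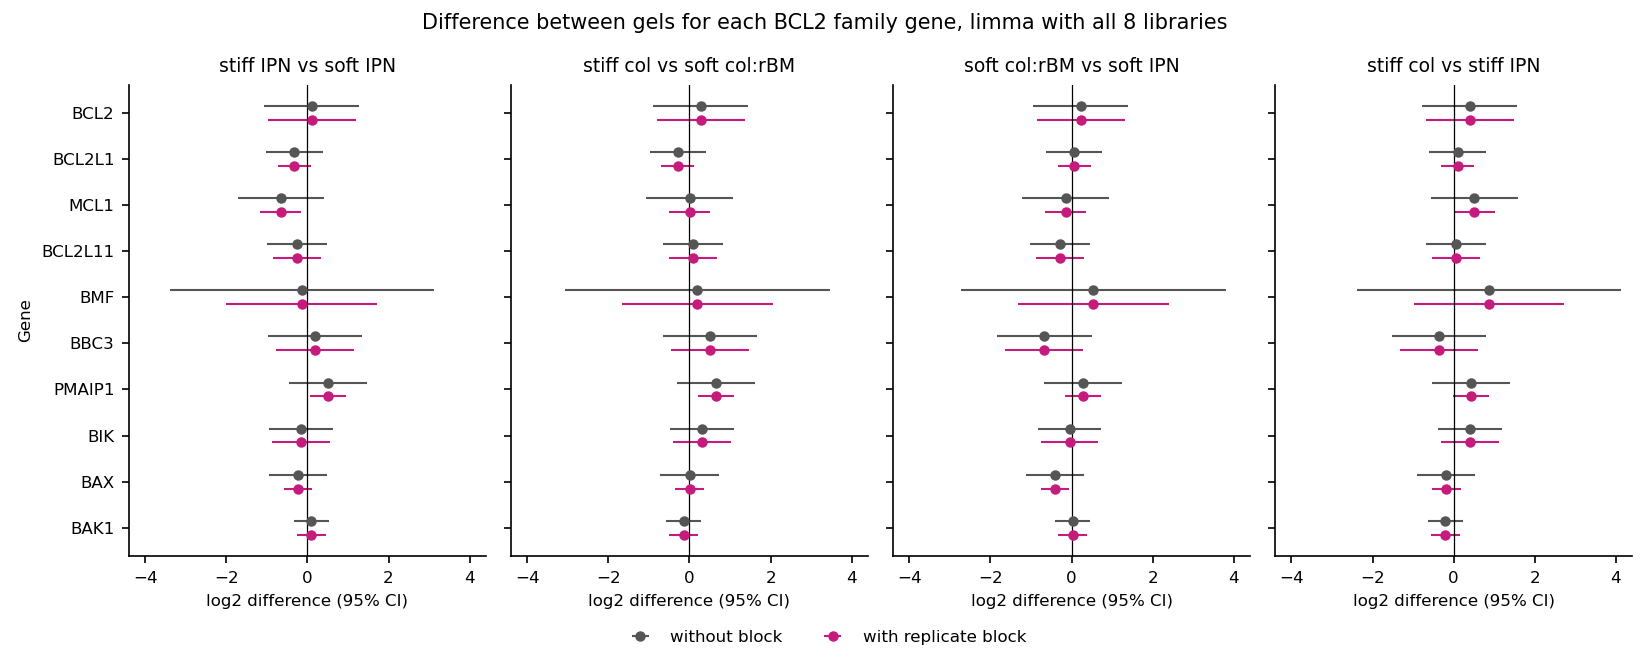
Log2 difference between gels (x axis, log2 of normalized count + 1) for the 10 genes, with points for the limma estimate and bars for its 95% confidence interval, without (grey) and with (magenta) the replicate block. In the IPNs MCL1 lay at −0.65 and PMAIP1 at 0.51, and the BMF intervals were the widest.

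Among the anti-apoptotic genes, MCL1 had 30307 and 26191 normalized counts in replicates 1 and 2 for soft IPNs, 26836 and 11931 for stiff IPNs, 32160 and 20170 for soft col:rBM, and 33779 and 19360 for stiff col. The stiff IPN library of replicate 2 was the lowest of the 8, and stiff and soft IPNs overlapped. The stiff minus soft IPN difference was −0.65 on the log2 scale, with a standard error (SE) of 0.457 and adjusted p = 0.652 without the block and 0.220 and 0.123 with it. Over all alternatives tried the adjusted p ran from 0.0230 to 0.999, and only the blocked fit without stiff IPN replicate 1, which leaves the low library to stand for the gel, called it, at −0.96. In the collagen pair the MCL1 difference was 0.01 (95% interval −0.50 to 0.51 with the block).

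BCL2L1 had 2705 and 2285 normalized counts for soft IPNs, 2063 and 1922 for stiff IPNs, 3267 and 2083 for soft col:rBM, and 2690 and 1687 for stiff col. Both stiff IPN libraries lay below both soft IPN libraries, by −0.32 on the log2 scale (SE 0.177, adjusted p = 0.299 with the block), and the collagen pair differed by −0.29 with overlapping libraries. Averaged over both systems, the stiff minus soft difference of BCL2L1 was −0.31 with an unadjusted p of 0.0399 and an adjusted p of 0.23 in the blocked limma fit. BCL2 had 12 and 18 for soft IPNs, 23 and 11 for stiff IPNs, 19 and 16 for soft col:rBM, and 19 and 24 for stiff col. At this depth its 95% interval in the IPNs ran from −0.97 to 1.19 on the log2 scale with the block, so changes of BCL2 within that range cannot be told apart. Of the BCL2L1 transcript, 945 bases lie under the antisense gene ABALON, and because the counting is not stated to use strand their reads cannot be told apart.

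Of the BH3-only genes, PMAIP1, which encodes NOXA, the binding partner that directs MCL1 to degradation, came closest to a stiffness difference. It had 272 and 155 normalized counts for soft IPNs and 327 and 262 for stiff IPNs. In soft col:rBM it had 318 and 198, and in stiff col 534 and 291. Within each trial the stiff gel was higher than its soft partner, in 4 of 4 pairs, although the libraries of each pair of gels overlapped across the trials. The gel means were 213.5 ± 82.7 in soft IPNs, 294.5 ± 46.0 in stiff IPNs, 258 ± 84.9 in soft col:rBM and 412.5 ± 172 in stiff col (SD, n = 2). The stiff minus soft difference was 0.51 in the IPNs (SE 0.194, adjusted p = 0.16 with the block, 0.706 without) and 0.65 in the collagen gels (SE 0.194, adjusted p = 0.958 with the block, 1 without). Once GC content and length were corrected for in the blocked fit, the PMAIP1 difference in the IPNs was 0.19 (adjusted p = 0.597), and in the blocked fit without stiff IPN replicate 1 it was called at 0.74 (adjusted p = 0.0263). Averaged over both systems it was 0.58, or 1.49-fold, with a 95% interval of 0.26 to 0.90 and limma adjusted p = 0.0934 with the block, and 0.75 without. The average was added after the values had been seen, and its adjusted p ran from 0.00986 to 1 over the alternatives. It passed the threshold in 1 of them, the blocked fit without stiff IPN replicate 1, and with a correction for GC content and length it was 0.35 (adjusted p = 0.254).

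BMF, which links loss of matrix contact to apoptosis, had 141 and 15 normalized counts for soft IPNs, 35 and 51 for stiff IPNs, 199 and 23 for soft col:rBM, and 209 and 29 for stiff col. In 3 gels there was 1 high and 1 low library, and both stiff IPN libraries lay between these. The intervals of BMF were the widest of the 10 genes, at −0.14 between stiff and soft IPNs with a 95% interval of −2.00 to 1.72 with the block, and 0.20 with an interval of −1.66 to 2.05 in the collagen pair. Its direction in the IPNs turned with the library left out: with the block, BMF was called at −1.91 (adjusted p = 0.0210) without stiff IPN replicate 2 and at 1.63 (adjusted p = 0.0111) without stiff IPN replicate 1.

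BCL2L11, the gene of BIM, had 346 and 194 normalized counts for soft IPNs, 199 and 235 for stiff IPNs, 237 and 190 for soft col:rBM, and 233 and 219 for stiff col. Apart from the soft IPN library of replicate 1, the other 7 lay between 190 and 237, and the gels overlapped, with a difference of −0.26 (95% interval −0.86 to 0.34) in the IPNs and 0.09 (−0.51 to 0.69) in the collagen pair with the block. Of its transcript, 727 bases lie under exons of MIR4435-2HG on the other strand, and 461 bases of BMF lie under BMF-AS1, whose reads cannot be told apart from theirs.

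BBC3, which encodes the BH3-only protein PUMA, had 136 and 55 for soft IPNs, 79 and 124 for stiff IPNs, 65 and 45 for soft col:rBM, and 90 and 66 for stiff col. Both stiff col libraries lay above both soft col:rBM libraries, but the difference of 0.50 had an adjusted p of 1 in limma with and without the block. BIK, a BH3-only protein of the endoplasmic reticulum, had 292 and 256, 231 and 262, 324 and 215, and 243 and 437 normalized counts in the same order of gels. Its highest library was stiff col replicate 2, and its differences between the paired gels ran from −0.15 to 0.40 on the log2 scale, none of them called.

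Neither effector was called between gels. BAX had 797 and 1179 normalized counts for soft IPNs, 768 and 888 for stiff IPNs, 601 and 883 for soft col:rBM, and 593 and 896 for stiff col. Its replicate 1 libraries of both collagen gels were the lowest of the 8, and soft col:rBM was lower than soft IPN in both trials, by −0.41 (SE 0.152, unadjusted p = 0.0266, limma adjusted p = 0.958 with the block, 1 without). BAK1 had 1050 and 1288, 1165 and 1325, 1196 and 1169, and 1140 and 1011 in the same order, the smallest spread of the 10 genes with an SD of 0.13 on the log2 scale. Its stiff minus soft differences were 0.10 in the IPNs (95% interval −0.26 to 0.45 with the block) and −0.14 in the collagen pair (−0.50 to 0.22). In BAK1, 91 bases lie under GGNBP1 on the other strand.

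**Figure D3:**
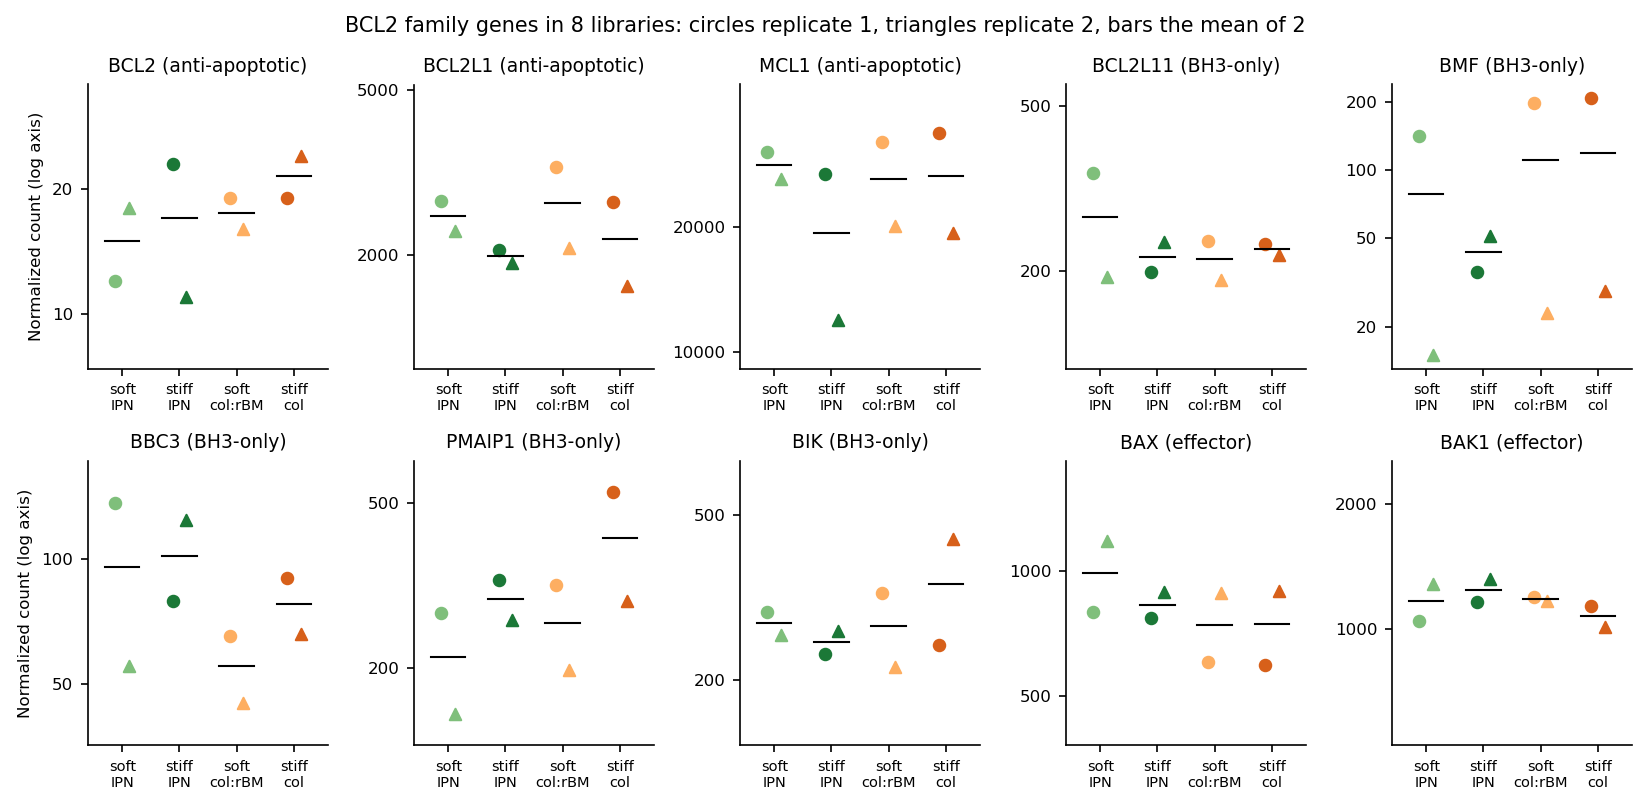
Normalized counts (log axis, each panel its own range) of the 10 genes in the 4 gels, with circles for replicate 1, triangles for replicate 2 and a bar for the mean of both. BMF lay between 15 and 209 and BAK1 between 1011 and 1325, the widest and the narrowest ranges on the log scale.

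Ordered by the gel means, PMAIP1 was highest in stiff col, then stiff IPN, soft col:rBM and soft IPN, with a ratio of the highest to the lowest mean of 1.93, and BMF had a ratio of 2.77 from stiff col down to stiff IPN. Over the 10 genes this ratio ran from 1.16 for BAK1 to 2.77 for BMF. Neighbouring gels in these orders overlapped for all members except BBC3, where 1 pair of neighbours did not. Such overlaps were not counted over all genes, so nothing particular to the members is read from them. The difference in the stiffness effect between the systems was not called for any member, with the nearest value for MCL1, 0.66 higher in the collagen gels than in the IPNs (SE 0.311, limma adjusted p = 0.538 with the block, 1 without).

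Ratios of members within a library do not depend on the library's factor. They are not corrected for length and are compared only between libraries. The log2 ratio of BAX to BCL2 lay between 4.96 in stiff col replicate 1 and 6.33 in stiff IPN replicate 2, and BCL2L11 to BCL2L1 between −3.79 in soft col:rBM replicate 1 and −2.95 in stiff col replicate 2. That of BCL2L11 to MCL1 lay between −7.18 in stiff col replicate 1 and −5.67 in stiff IPN replicate 2. The stiff IPN libraries had a BCL2L11 to MCL1 ratio of −7.08 and −5.67 and the soft IPN libraries −6.45 and −7.08, so the gels overlapped.

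Members were called between the trials and not between gels. Comparing replicate 2 with replicate 1 within gels, over 4 pairs and with the gel in the fit, limma called 5 of the 10 members, where 27.1% of all 13369 genes were called. BMF, MCL1, PMAIP1 and BCL2L1 were lower in replicate 2, and BAX was higher; below, rose and fell between the trials mean higher and lower in replicate 2. The 4 pairs set 1 trial against 1 other, so the limma p-values do not measure how much trials vary. An exact sign-flip test on 4 pairs cannot go below a two-sided p of 0.125, and what differed between the trials is not given, so no cause was tested.

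**Figure D4:**
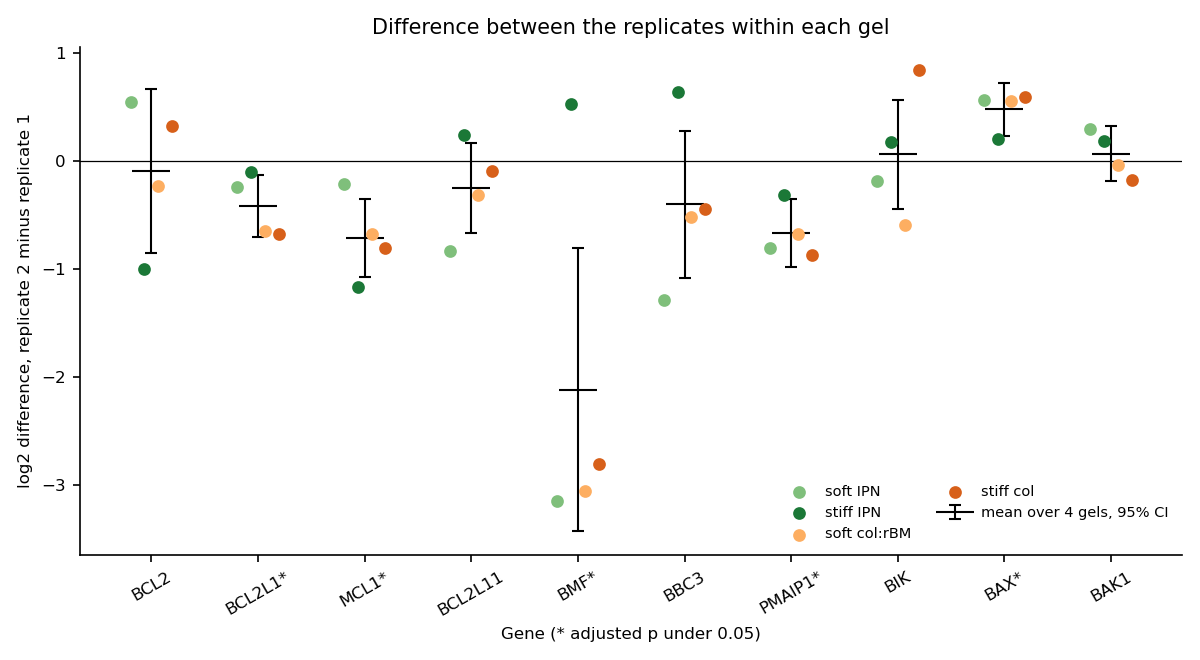
Log2 difference of replicate 2 minus replicate 1 (y axis) in each gel (coloured points) for the 10 genes, with the mean over 4 gels and its 95% confidence interval from limma in black. BAX lay above 0 and MCL1, PMAIP1 and BCL2L1 below 0 in all 4 gels, while BMF lay near −3 in 3 gels and at 0.53 in stiff IPNs.

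BMF was 9.4-fold higher in replicate 1 than in replicate 2 of soft IPNs, 8.65-fold in soft col:rBM and 7.21-fold in stiff col. In stiff IPNs it went the other way, with 1.46-fold more in replicate 2. The mean difference was −2.12 (SE 0.571, limma adjusted p = 0.0295).

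MCL1 was lower in replicate 2 in 4 of 4 gels, by 1.16-fold in soft IPNs, 2.25-fold in stiff IPNs, 1.59-fold in soft col:rBM and 1.74-fold in stiff col, with a mean of −0.71 (SE 0.156, adjusted p = 0.0150). PMAIP1 was likewise lower in 4 of 4 gels, from 1.25-fold in stiff IPNs to 1.84-fold in stiff col, with a mean of −0.67 (SE 0.137, adjusted p = 0.0121). BCL2L1 was lower in all 4, from 1.07-fold in stiff IPNs to 1.59-fold in stiff col, with a mean of −0.42 (SE 0.125, adjusted p = 0.0416). BAX was 1.16-fold to 1.51-fold higher in replicate 2 in 4 of 4 gels, with a mean of 0.48 (SE 0.108, adjusted p = 0.0162). MCL1 and BCL2L1, which restrain BAX, differed in the opposite direction to it, but so did the BH3-only genes PMAIP1 and BMF in their means. BCL2, which also restrains apoptosis, and the other effector BAK1 were not called.

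BBC3 was lower in replicate 2 in 3 gels and higher in stiff IPNs, with a mean of −0.40 (adjusted p = 0.334). BCL2L11 had a mean of −0.25 (adjusted p = 0.334), BCL2 −0.09 (0.861), BIK 0.06 (0.857) and BAK1 0.07 (0.669). In BCL2, BBC3, BCL2L11, BMF and BIK the stiff IPN pair differed in the direction opposite to the soft IPN pair. Calls were lost without any of 3 pairs: leaving out the soft IPN pair left 1 member called, the soft col:rBM pair 1 and the stiff col pair 0. Leaving out the stiff IPN pair gave 6 members, with BBC3 added at −0.75 (adjusted p = 0.0243). The number of all genes called also varied with the pair left out, over the range given in the last section.

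Over the trials the members' median difference was −0.33, against −0.01 for all genes. Scaling by library totals moved the all-gene median to 0.12 and left 4 members called, with the same directions for MCL1, PMAIP1, BMF and BAX, and BCL2L1 at −0.29 (adjusted p = 0.0914). That scaling also moved the split of calls over all genes from 1693 higher and 1926 lower to 2401 and 1242. In the IPNs it moved the all-gene median to 0.26, with 665 genes higher and 165 lower in stiff than in soft against 226 and 285 as deposited, and for the averaged stiffness difference to 0.16, with 74 and 27 against 42 and 38. Members with a positive stiff minus soft IPN difference went from 4 to 8 of the 10, and their median from −0.15 to 0.12, with BCL2L1 at −0.05. No member was called between gels under it.

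Markers of the cell line moved with the trial as well. Of 8 MCF10A markers, 4 were higher and 2 lower in replicate 2, 75% against 27.1% of all genes. The largest changes were in the basal keratins KRT14 at 1.94, KRT17 at 1.80 and KRT5 at 1.35 on the log2 scale (limma adjusted p = 0.00178, 0.000721 and 0.00168). The summed level of the list was 141211 to 192667 in replicate 1 and 120634 to 189124 in replicate 2. KDR of the endothelial list and CD14 of the leukocyte list were lower in replicate 2, at −2.20 and −1.17 (adjusted p = 0.00275 and 0.00466), while their sums ran from 74 to 270 against 39 to 73 and from 152 to 415 against 89 to 195. CDH5 was at 0 in 7 of 8 libraries and PTPRC at 0 in all 8. The part of cell state or composition in the members' differences was not tested.

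The other genes of the pathway were taken from lists chosen by function. Pooled, 21 of their 75 tested genes, 28%, were called between the trials, near the 27.1% of all genes. Of the other BCL2 family genes, 8 of 11 passed the filter, and with the block none was called between gels and 2 fell between the trials: BCL2L2, the anti-apoptotic BCL-w, at −0.36 (adjusted p = 0.0372) and BCL2L13 at −0.35 (adjusted p = 0.0268). BCL2A1, BCL2L10 and BCL2L14 did not pass the filter, and BCL2L14 was at 0 in all 8 libraries. Of 15 genes of the apoptosome and caspases, 3 rose between the trials and none fell, 20% against 27.1% of all genes: AIFM1, DFFB and CASP2, at 0.52, 0.52 and 0.43 (adjusted p = 0.0184, 0.0322 and 0.0294). The median of that list was 0.23.

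Of 11 tested death receptor genes 4 rose between the trials and none fell, 36.4% against 27.1% of all genes, with a list median of 0.38. FAS, a death receptor, rose by 0.53 (adjusted p = 0.0443), TNFRSF10B, a receptor of TRAIL, by 0.43 (0.0227), and RIPK1 by 0.38 (0.0324). Of 10 transcription factors known to act on BH3-only genes, 4 rose and 1 fell, 50% against 27.1% of all genes, with a median of 0.10. E2F1 rose by 1.46 (adjusted p = 0.00711) and TP63 by 0.97 (0.0181), and FOXO3, known to act on BCL2L11 and BBC3, fell by 0.69 (0.00678).

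Of 11 partners and turnover genes, 1 rose and 2 fell between the trials: YWHAB, a 14-3-3 protein that binds the BH3-only protein BAD, at 0.80 (adjusted p = 0.00871), VDAC2, a mitochondrial partner of BAK1 and BAX, at −0.43 (0.0401), and BTRC, a ubiquitin ligase subunit, at −0.34 (0.0477). Of 14 tested anoikis receptors and kinases, 1 rose and 3 fell, with MAPK3, the ERK1 kinase, at −1.01 (0.00443), ITGB4 at −0.91 (0.00852) and ITGA6 at 0.70 (0.020). Of the 6 tested inhibitors of apoptosis (IAPs) none was called between the trials.

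Between gels, 3 of the 75 tested genes of these lists, 4%, were called in stiff against soft IPNs with the block, near the 3.82% of all genes, and none without it. BIRC3, CFLAR and ITGB4 all lost their calls in the blocked fit without soft IPN replicate 2, an alternative added after seeing the data. Their differences there were 0.83, 0.80 and −1.01. They were not called with only the 4 IPN libraries either, but that fit had no block. It cannot separate the loss of the block from the loss of the libraries. CFLAR also lost its call without soft IPN replicate 1 (adjusted p = 0.0926) or either stiff col library (0.0524 and 0.0533). BIRC3, an IAP that is also a target of NF-κB, had 1836 and 1387 normalized counts for soft IPNs and 3446 and 3769 for stiff IPNs, a difference of 1.17 (SE 0.215, limma adjusted p = 0.0354). In the collagen gels it had 674 and 1013 for soft col:rBM and 1935 and 2130 for stiff col. Stiff gels exceeded their soft partners without overlap in both systems, and the averaged BIRC3 difference was 1.24 (adjusted p = 0.0214).

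CFLAR, which encodes the caspase-8 inhibitor c-FLIP, had 1382 and 1080 for soft IPNs and 2074 and 2686 for stiff IPNs, a difference of 0.95 (adjusted p = 0.0409). ITGB4, the integrin β4 subunit of hemidesmosomes, had 43446 and 36407 for soft IPNs and 21849 and 9669 for stiff IPNs, a difference of −1.45 (adjusted p = 0.0292). Its averaged stiffness difference was −1.12 (adjusted p = 0.0400). In the same comparison 2 of the 8 MCF10A markers were called higher and 1 lower, 37.5% against 3.82% of all genes. KRT17 and CDH1 were higher in stiff IPNs, at 1.88 and 0.91 (limma adjusted p = 0.00669 and 0.0376). ITGB4, which is also on that list, was the lower one. The marker list had a median of −0.17, with 3 genes positive and 5 negative. Between the stiff gels 3 of the 8 markers were lower in stiff col than in stiff IPNs, 37.5% against 2.47% of all genes. These were KRT17 at −2.57, CDH1 at −1.63 and KRT14 at −1.52 (limma adjusted p = 0.00302, 0.00781 and 0.0328). Of the 8 markers, 4 differences were positive and 4 negative there. None of the 75 pathway genes was called between the stiff gels. No gene of these lists was called between stiff col and soft col:rBM or between the soft gels.

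For the 3 members that varied most over the libraries, the genes with the most similar profile were picked by Pearson's r of log2 values over the 8 libraries among all genes tested, as a description with no test. For BMF these were LINC01138 (r = 0.989), SWI5 (0.985) and CCDC174 (0.983), whose own values ran only from 84 to 147, 172 to 436 and 271 to 406 normalized counts. For BBC3 they were RSAD1 (0.982), C6orf136 (0.976) and RP9P (0.946), and for PMAIP1 BBIP1 (0.985), IFT57 (0.979) and ME1 (0.973). The points share libraries, and with 8 of them the highest of 13369 correlations are high by choice.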

How the data were processed

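RNA from 4 hydrogels, 2 replicates each, was made into libraries with a TruSeq v2 kit. The authors' processing notes list Trim Galore 0.3.3, TopHat2 2.0.13, SAMtools 1.1, HTSeq, DESeq2, R 3.2.0 and hg19. The deposited signal values are the authors' HTSeq counts divided by 1 factor for each library and rounded. Steps in the low values gave 0.804 to 1.24 normalized counts per read, so that 3 reads, the detection floor, were 2.41 to 3.73 normalized counts. Because these are not raw counts, limma 3.58.1 (R 4.3.3, mean-variance trend, robust moderation) was used on log2(value + 1). The genes tested had at least 10 in at least 2 libraries. The fits were checked on simulated data in which the shift between trials was the same in every gel. That check cannot tell how the blocked fit behaves where the gels differ in this shift. Deviations from gel means correlated between same-numbered libraries in all 6 pairs of gels (r = 0.278 to 0.819), and the first principal component (47.4%) separated the replicate numbers, so these numbers pair the samples. Named genes were the 10 members, up to 3 called genes of each other list with the largest change in a comparison (1 such gene is not reported here), and 3 profile matches for each of the 3 most variable members. The members and lists were chosen with earlier results of these data known. Lengths came from GENCODE 44 lifted to hg19, and promoters from RefSeq. Symbols turned into dates (28) and 2 repeated symbols in the table touch no member. P-values between gels rest on the spread between the 2 trials, with the block on what remains after the shift shared by the gels. Those between the trials rest on how far the 4 gels disagree within the same 2 trials. They do not measure how much trials vary.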

Additional observations from a re-analysis of the deposited data

How the results depend on the processing

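Alternatives were 3 other scalings, pseudocounts of 0.5 and 5, other filters, plain moderation, the replicate block and leaving out each library; blocked fits that also rescaled, corrected for GC content and length or left out a library, and all fits of the averaged stiffness difference, were added after seeing the data. Without the block no member was called in any gel comparison under any alternative, and with it members were called only when a stiff IPN library was left out. Genes called rose from 0 with the block to 511 for stiff against soft IPNs, 3 for the soft gels, 330 for the stiff gels, 2 for the difference in stiffness effect, 211 among the 4 gels and 80 for the averaged stiffness difference. In the same order, adding median-of-ratios scaling gave 517, 0, 328, 2, 208 and 76 and adding the GC and length correction 734, 4, 488, 3, 264 and 66, with 2 for the collagen pair. A gel left with 1 library was assumed to vary like the others. Without the block, a fit to the 4 IPN libraries alone gave 1 gene, and a pseudocount of 5 gave 4 for the stiff gels. Leaving out a library gave 0 to 2670 genes for the IPNs (2670 and 1065 without stiff IPN replicate 1 and 2), 0 to 30 for the collagen pair, 0 to 21 for the soft gels, 0 to 2191 for the stiff gels, 0 to 658 for the difference in effect, 0 to 2010 among the gels and 0 to 1933 for the average. It gave 0 to 3, 0 to 1, 0 to 2 and 0 to 2 members for the IPNs, the stiff gels, all gels and the average.

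Single members crossed the threshold in the blocked fits without a stiff IPN library. BMF in the IPNs was −1.91 without replicate 2 and turned to 1.63 without replicate 1, where its averaged difference was called at 0.91 (adjusted p = 0.0213). Without replicate 2 that average turned to −0.86 (adjusted p = 0.0468), and BMF was called between the stiff gels at 2.64 (adjusted p = 0.00891). Without replicate 1, MCL1 was called between the stiff gels at 0.82 (adjusted p = 0.0417). Between the trials, leaving out a pair of libraries gave 1217 to 5821 genes and 0 to 6 members called, against 3619 genes and 5 members with all pairs. Plain moderation gave 3 members, with BCL2L1 and BMF at adjusted p = 0.0929 and 0.0730. The cause was not tested. Over the 12068 tested genes with both properties (90.3%), the trial difference had a Spearman correlation of −0.03 with GC content and 0.05 with length, and 5 members stayed called after correction. At 10 to 30 reads, depth limits BCL2.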
